A study of Mus musculus with 2 samples.

Results

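The RUNX transcription factors, their shared partner CBF-beta and the ETO family corepressors were followed in RNA from mouse bone marrow progenitors. The set consists of 7 genes chosen by name, Runx1, Runx2, Runx3, Cbfb, Runx1t1, Cbfa2t2 and Cbfa2t3, and all 7 were found among the 43346 Ensembl genes of the deposited tables. The study holds 2 total RNA-seq libraries of 1 group, bone marrow progenitors called megakaryocyte progenitor cells (CFU-Meg), the precursors of platelet-forming cells. They are primary cells of adult male C57BL/6J mice aged 5 to 6 weeks, with no treatment or altered allele named, and 1 ng of RNA went into each library. A linked protocol title speaks of small pools of cells, and the number of animals is not stated. The labels number the libraries as biological replicates from separate biosamples, but both name 1 donor, so their spread may be technical. The samples form no contrast between conditions, and nothing was tested.

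Core-binding factor is a heterodimer. A RUNX protein binds DNA through its Runt domain, and CBF-beta, which does not itself bind DNA, stabilises the RUNX protein on its site. Runx1 is required for blood stem cells to form in the embryo and for normal platelet production, Runx2 is best known as the master regulator of bone formation, and Runx3 is best known in T lymphocytes and sensory neurons. The ETO proteins bring histone deacetylases and other corepressors to blood transcription factors. In human acute myeloid leukaemia RUNX1T1 is fused to RUNX1, and CBFB is itself a target of a recurrent inversion.

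The libraries held 82746658 and 75652762 expected counts, that is, estimated reads assigned to genes. Levels are given in TPM, a relative abundance corrected for transcript length and scaled to the same total in each library, as the value in replicate 1 and replicate 2 and as mean ± SD (n = 2). The cell label was not borne out by its markers: 3 of 14 megakaryocyte markers reached 1 TPM in both libraries, with summed levels of 15.2 and 8.53 TPM and with Gp6 and Tubb1 at an expected count of 0. All 12 granulocyte and monocyte markers did so, with sums of 19068 and 20029 TPM. So did 10 of 12 erythroid markers, with sums of 748 TPM in replicate 1 and 425 TPM in replicate 2. All 8 mast cell and basophil markers did too, with sums of 199 and 200 TPM. Mitochondrial genes took 26.8% and 28.8% of expected counts, and the single gene Gm42418 took 23.4% and 20.8%. In bulk RNA, fewer cells of a type and less RNA per cell cannot be told apart.

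Cbfb was the most abundant of the 7 genes, Runx1 led the RUNX genes, and Cbfa2t3 led the ETO family. All members but Runx1t1 passed 1 TPM in both libraries. By mean level the order was Cbfb, Runx1, Runx3, Runx2, Cbfa2t3, Cbfa2t2 and Runx1t1. TPM is relative to all RNA counted: rescaled to a total that leaves out part of that RNA, Runx1 stood at 107 and 104 and Cbfb at 156 and 149. That total is smaller than the summed TPM of all protein-coding genes. Such rescaling applies 1 factor per library, so the order of the genes within a library is the same by construction.

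**Figure D1:**
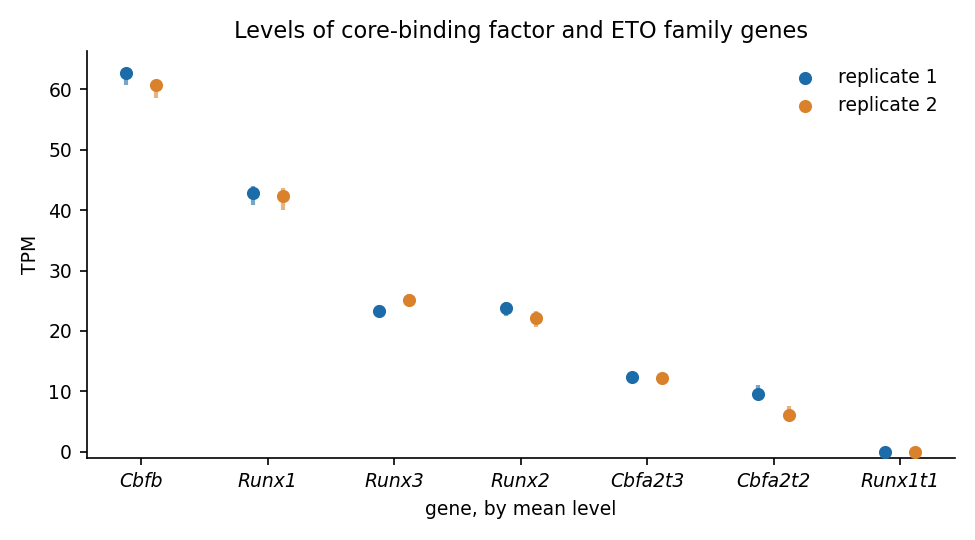
TPM of the 7 genes in each library (points: replicate 1 and replicate 2; vertical lines: the credibility interval deposited by the authors, which belongs to the posterior mean and can leave out the plotted value). Cbfb sits near 61.7 TPM on average and Runx1 near 42.6 TPM, Runx2 and Runx3 overlap, and Runx1t1 lies at the bottom.

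Cbfb (ENSMUSG00000031885.9, chromosome 8, 105170674 to 105217989, plus strand, GRCm38) encodes the shared beta subunit. It stood at 62.7 TPM in replicate 1 and 60.6 TPM in replicate 2, from 9562 and 8588 reads. Both libraries placed it above every other member, higher than 95.5% and 95.2% of protein-coding genes.

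Runx1 (ENSMUSG00000022952.12, chromosome 16, 92601466 to 92826149, minus strand) encodes the main RUNX factor of blood stem and progenitor cells. Its level was 42.8 TPM in replicate 1 and 42.3 TPM in replicate 2, from 10589 and 9987 reads. The libraries were nearly equal, and neither overlapped the range of Cbfb above it or of Runx3 below it.

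Runx2 and Runx3 were expressed at similar levels, each a little over 20 TPM. Runx3 (ENSMUSG00000070691.6, chromosome 4, 135120652 to 135177990, plus strand) had 23.3 and 25.1 TPM. Runx2 (ENSMUSG00000039153.12, chromosome 17, 44495987 to 44814797, minus strand) had 23.8 and 22.1 TPM. Their ranges overlapped, and the authors' credibility intervals for them overlapped in replicate 1 and were apart in replicate 2, where Runx3 was the higher.

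Runx1 therefore made up 47.7% and 47.3% of summed RUNX TPM (47.5% ± 0.3, n = 2). Runx3 made up 27.0% ± 1.5 and Runx2 25.5% ± 1.2. Cbfb held 0.698 and 0.677 TPM for each TPM of the 3 RUNX genes together, and 1.46 and 1.43 for each TPM of Runx1 alone. Counted in reads without the correction for length, that first ratio is 0.415, since the RUNX transcripts are longer.

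Markers of bone and cartilage cells and of T and NK cells, looked at for Runx2 and Runx3, were mostly near 0. No markers of sensory neurons were listed. Of 10 osteoblast and chondrocyte markers, 1 reached 1 TPM in both libraries, the secreted protein gene Spp1 at 3.90 and 4.34 TPM. The list summed to 4.36 and 4.66 TPM, and Sp7, Bglap and Alpl, which define the bone-forming lineage, had no reads. Of 12 T and NK cell markers, 1 reached 1 TPM in both, the granzyme gene Gzmb, with list sums of 4.86 and 3.46 TPM and no reads for Cd3e, Cd3g or Cd8a. Plasmacytoid dendritic cells also express Runx2, and 2 of their 8 markers, Tcf4 and Bst2, reached 1 TPM in both libraries, while Siglech stood at 0.0 and 0.04 TPM.

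Cbfa2t3 (ENSMUSG00000006362.11, chromosome 8, 122625141 to 122699109, minus strand) encodes the ETO family member that joins the TAL1 and LDB1 complex in erythroid and megakaryocytic cells. It stood at 12.4 and 12.3 TPM, from 2983 and 2689 reads. Of the members past 1 TPM its libraries were the closest to each other, with an SD of 0.057 TPM.

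Cbfa2t2 (ENSMUSG00000038533.11, chromosome 2, 154436481 to 154539356, plus strand), a more widely expressed corepressor of the same family, stood at 9.60 TPM in replicate 1 and 6.12 TPM in replicate 2. It was lower in replicate 2, with deposited intervals of 9.00 to 11.0 and 5.51 to 7.60 TPM that did not overlap. Its range stayed below that of Cbfa2t3. A processed copy, Cbfa2t2-ps1, can take reads from the gene and held 15.2 and 29.6 expected counts, against 2379 and 1585 for Cbfa2t2.

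Runx1t1 (ENSMUSG00000006586.11, chromosome 4, 13743436 to 13893649, plus strand), the founding ETO gene and the partner of RUNX1 in human leukaemia, was close to absent. It had 6 reads in replicate 1 and 1 read in replicate 2, or 0.02 and 0.0 TPM as deposited. At this depth 3 reads of Runx1t1 would be worth 0.00855 and 0.00922 TPM. Cbfa2t3 accounted for 56.2% and 66.7% of the family's summed TPM (61.5% ± 7.4, n = 2), and the family held 0.245 and 0.206 TPM per TPM of the RUNX genes, which summed to 89.9 and 89.5 TPM.

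Of the members past 1 TPM, Cbfa2t2 differed most between the libraries, and the others had absolute log2 ratios of 0.11 or less. None of the 6 members with a mean of 1 TPM or more changed by 2-fold, that is, by an absolute log2 ratio of (TPM + 1) of 1 or more, where 3.12% of all 11748 such genes did. For so few members a count of 0 is near that share and does not set them apart. The log2 ratio of replicate 2 over replicate 1 was -0.02 for Runx1, -0.05 for Cbfb, -0.01 for Cbfa2t3, -0.10 for Runx2, 0.11 for Runx3 and -0.57 for Cbfa2t2. Cbfa2t2 was the exception in size: of 2647 genes within 1.5-fold of its level, 8.24% had a larger ratio. With 2 libraries and no contrast these ratios have no replicate check.

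**Figure D2:**
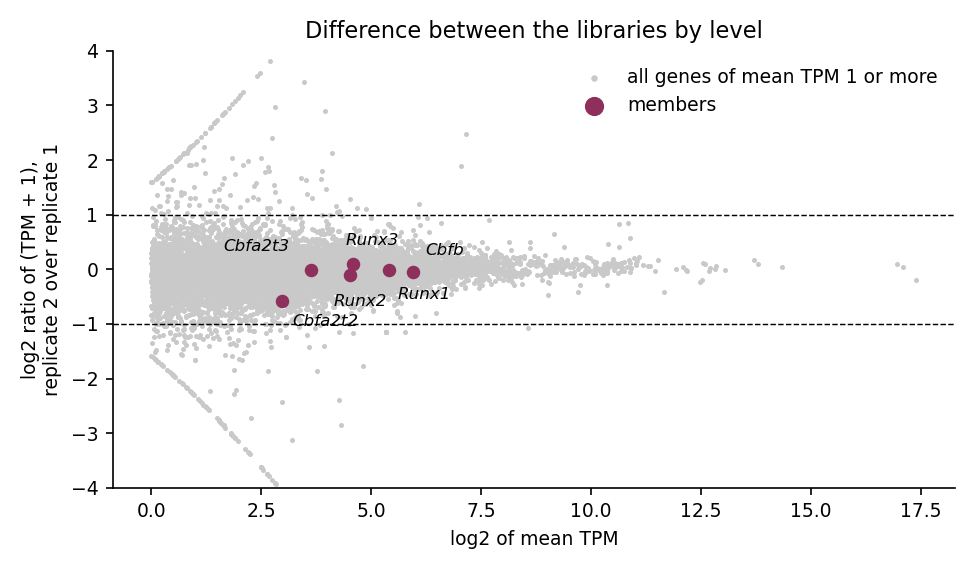
Log2 ratio of (TPM + 1), replicate 2 over replicate 1, against the log2 of mean TPM for the 11748 genes of mean TPM 1 or more (grey) and 6 members (purple); dashed lines mark 2-fold, and 22 genes past an absolute ratio of 4 lie outside the axis. The other members sit near 0 and Cbfa2t2 sits lower, at -0.57, inside the 2-fold lines.

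Each RUNX gene is transcribed from a distal and a proximal promoter, far apart, which give proteins with different first residues. The distance between the annotated starts is 128821 bases in Runx1, 78149 in Runx2 and 31844 in Runx3. The first coding bases below, with the start codon in capitals, show the change: pairs of proximal starts from different genes had 36 to 40 identical bases of 45, pairs of distal starts had 25 to 32, and the distal and proximal starts of 1 gene had 10 to 18.
Runx1 distal: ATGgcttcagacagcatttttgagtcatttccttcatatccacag
Runx1 proximal: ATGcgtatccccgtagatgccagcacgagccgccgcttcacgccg
Runx2 distal: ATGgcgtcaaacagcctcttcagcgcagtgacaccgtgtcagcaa
Runx2 proximal: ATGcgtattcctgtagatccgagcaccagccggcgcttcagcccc
Runx3 distal: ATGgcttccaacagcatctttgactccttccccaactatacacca
Runx3 proximal: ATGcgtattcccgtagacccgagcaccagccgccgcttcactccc

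Transcripts with distal starts were assigned most of the TPM of all 3 RUNX genes in both libraries. Transcripts were grouped by their annotated starts, with neighbours within 500 bases joined, into distal, proximal and internal groups. The internal group holds annotated fragments with no complete coding start. The shares come from reads over whole transcripts and not from reads at the starts. Forms of a gene can also differ at their 3′ ends. In Runx1 the leading distal coding form ends at 92601466 and the leading proximal coding form at 92603656. The part of such ends in the shares was not tested, so the shares are not a measure of promoter use alone.

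For Runx1 the distal group took 73.4% and 74.9% of TPM (74.2% ± 1.0, n = 2) and the proximal group 21.8% and 23.2% (22.5% ± 1.0). In reads these were 8159 and 7578 distal against 2382 and 2391 proximal. Of the 3 genes, Runx1 had the highest proximal share.

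For Runx2 the distal group took 78.8% and 76.5% of TPM and the proximal group 6.65% and 5.17%. The internal group held a further 14.6% and 18.4%, all from a 440-base fragment with 64.7 and 71.1 reads. Division by its short length makes that value large, and by reads it held 0.927% and 1.22% of Runx2, against 91.2% and 94.3% for the distal group. Joining starts within 2000 bases puts this fragment in the proximal group and raises that share to 22.4%.

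For Runx3 the distal group took 96.9% and 92.2% of TPM. The proximal group took 2.45% and 3.38%, from only 8.43 and 16.7 reads, which mostly belonged to non-coding fragments. The proximal coding form had an expected count of 0 in replicate 1 and 1.79 in replicate 2. Across the ways of grouping and counting, the mean proximal share ran from 0.040% to 5.46%, and over coding transcripts alone it was 0.043%. Only a few reads were thus assigned to transcripts of that start.

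The ETO family gene Cbfa2t3 likewise has starts 20415 bases apart, and its distal group held 97.2% and 96.4% of TPM. All Cbfb transcripts fell in 1 group, since this gene has a single cluster of starts.

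**Figure D3:**
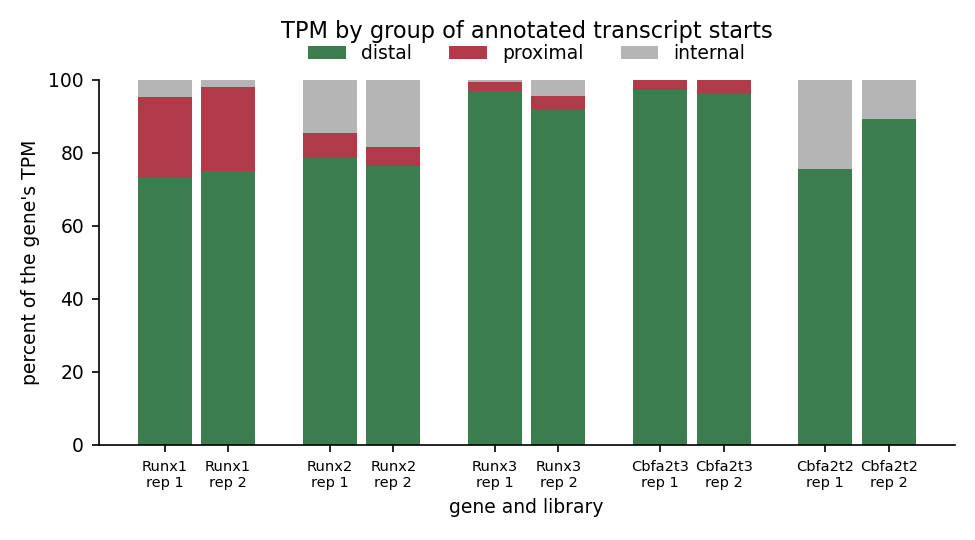
Percent of each gene's TPM (vertical axis) taken by transcripts of the distal (green), proximal (red) and internal (grey) groups of annotated starts, 1 bar per gene and library. Green fills most of every bar; red is widest in Runx1, at 21.8% and 23.2%.

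The promoter windows of these starts differ in sequence. Each window, from RefSeq on GRCm38.p6, runs from 250 bases before the start to 50 bases after it, and is printed 5′ to 3′ on the gene's strand. Capitals mark the RUNX binding words TGTGGT and TGCGGT on either strand, so that TGTGGT reads as ACCACA on the opposite strand. The distal windows of the 3 RUNX genes are shown because they lie at the distal start groups, which were assigned most of the TPM, and share a pair of RUNX words. The proximal window of Runx1 is shown as the contrast. The RefSeq starts of the Runx1 and Runx2 distal windows are not those of the leading coding forms.
Runx1 distal, chr16:92826025-92826324, minus strand: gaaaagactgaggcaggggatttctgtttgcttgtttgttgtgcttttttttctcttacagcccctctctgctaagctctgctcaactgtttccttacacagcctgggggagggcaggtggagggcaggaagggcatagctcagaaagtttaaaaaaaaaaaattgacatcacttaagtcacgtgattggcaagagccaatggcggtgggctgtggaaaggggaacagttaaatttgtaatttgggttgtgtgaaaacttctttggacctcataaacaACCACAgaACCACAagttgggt
Runx2 distal, chr17:44814578-44814877, minus strand: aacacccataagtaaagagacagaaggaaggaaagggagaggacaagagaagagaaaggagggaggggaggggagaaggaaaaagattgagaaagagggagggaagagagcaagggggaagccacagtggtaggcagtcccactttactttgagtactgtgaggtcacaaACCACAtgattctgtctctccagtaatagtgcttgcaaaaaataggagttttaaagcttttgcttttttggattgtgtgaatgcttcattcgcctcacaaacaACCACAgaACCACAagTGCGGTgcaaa
Runx3 distal, chr4:135120395-135120694, plus strand: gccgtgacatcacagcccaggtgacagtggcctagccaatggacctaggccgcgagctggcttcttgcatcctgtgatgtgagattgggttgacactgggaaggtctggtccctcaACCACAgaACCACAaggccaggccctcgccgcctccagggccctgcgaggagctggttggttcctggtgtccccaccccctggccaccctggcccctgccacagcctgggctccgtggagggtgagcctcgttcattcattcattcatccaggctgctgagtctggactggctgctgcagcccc
Runx1 proximal, chr16:92697280-92697579, minus strand: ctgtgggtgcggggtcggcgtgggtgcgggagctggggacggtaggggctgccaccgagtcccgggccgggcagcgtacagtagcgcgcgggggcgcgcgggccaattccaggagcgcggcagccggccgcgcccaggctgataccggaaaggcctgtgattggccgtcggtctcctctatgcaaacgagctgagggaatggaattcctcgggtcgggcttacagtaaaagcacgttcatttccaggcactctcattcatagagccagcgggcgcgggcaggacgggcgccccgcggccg

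All 3 distal windows hold the 18-base run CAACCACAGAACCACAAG, which contains ACCACA in tandem. From the RefSeq start it begins at base 27 in Runx1, base 22 in Runx2 and base -136 in Runx3, where the start itself is base 1 and the base before it is -1. The leading distal coding forms have other annotated starts, 75 bases upstream of the RefSeq start in Runx1, 170 bases upstream in Runx2 and 7 bases downstream in Runx3. Counted along the genome from those, the run begins at base 102, base 192 and base -143. The run was picked as the longest one that the 3 distal windows share. Of 32851 promoter windows of the same length, 4 hold this run on either strand. They include the 3 windows it was picked from, and a run of this length is rare in any case, so the count is no separate support. The other is that of Gm16225, a long non-coding RNA gene on the opposite strand just upstream of Runx3, whose window overlaps the Runx3 window; Gm16225 had 7 and 0 reads. Single RUNX words are common, being present in 22.4% of all windows. Runx1 distal holds 2, Runx2 distal 4, Runx3 distal 2 and Cbfa2t3 distal 1, and the windows of the Runx1, Runx3 and Cbfa2t3 proximal starts, of Cbfb and of Cbfa2t2 hold none. A match of letters is not evidence of binding, which was not measured here.

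Base composition also differed between the distal and proximal windows, though the Runx2 proximal start had no window. The CpG ratio, observed over expected from base content, was 0.137 in the Runx1, 0.143 in the Runx2, 0.264 in the Runx3 and 0.33 in the Cbfa2t3 distal window, below the median of 0.384 over all windows. The proximal windows of Runx1, Runx3 and Cbfa2t3 had ratios of 1.01, 1.01 and 1.09, above 94.3%, 94.3% and 97.8% of windows. The single start regions of Cbfb and Cbfa2t2 were also CpG-rich, at 0.987 and 1.16.

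Within Runx1, 4 of 7 annotated transcripts took 10% or more of its TPM on average. The distal coding form of 465 codons (ENSMUST00000023673.9) stood at 18.6 and 19.8 TPM and led in both libraries. The distal processed transcript ENSMUST00000189679.1, which has no coding sequence, stood at 10.2 and 7.09 TPM and was lower in replicate 2. At the proximal start, the 387-codon coding form ENSMUST00000113956.5 stood at 4.37 and 5.84 TPM, and the retained-intron transcript ENSMUST00000189126.1 at 4.96 and 3.97 TPM. These 2 proximal transcripts changed rank between the libraries.

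The 387-codon form lacks a coding exon of 192 bases, 64 codons, at chr16:92644154-92644345. The full proximal form with that exon, ENSMUST00000168195.3 of 451 codons, had no reads in either library. Over the 3 complete coding forms, 81.0% and 77.2% of TPM was assigned to forms with the exon, all of it from the distal start. The only complete distal coding form in the annotation carries the exon. All TPM of complete distal coding forms therefore counts as carrying it, and skipping of the exon in distal RNA could not be seen. The proximal forms also differ in their annotated ends, 4738 bases for the form without the exon and 1985 for the form with it, and the part of that difference in the split was not tested. The exon, shown because it separates the coding forms, reads as follows.
Runx1 exon: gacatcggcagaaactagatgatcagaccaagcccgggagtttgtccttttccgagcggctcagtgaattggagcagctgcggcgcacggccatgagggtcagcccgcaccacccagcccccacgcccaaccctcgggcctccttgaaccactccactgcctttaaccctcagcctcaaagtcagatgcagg

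Runx2 and Runx3 RNA was concentrated in single distal coding forms. The 528-codon form of Runx2 (ENSMUST00000113571.5) took 73.9% and 74.4% of its TPM, and 6 of its 13 transcripts had no reads in either library. The 423-codon form of Runx3 (ENSMUST00000056977.9) took 96.9% and 92.2%. The 620-codon distal form of Cbfa2t3 (ENSMUST00000127984.3) took 97.1% and 94.1%. For Runx1t1 all 7 reads of the libraries together fell on 1 of its 6 transcripts.

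Cbfb was split between coding forms of different length. The 148-codon form (ENSMUST00000109394.2) led with 44.0 and 42.3 TPM, 70.1% and 69.8% of the gene. The 182-codon form (ENSMUST00000109392.3) followed at 18.3 and 17.6 TPM, and the 187-codon form (ENSMUST00000052209.4) stood at only 0.32 and 0.71 TPM. The deposited intervals of the 148-codon and 182-codon forms, 41.1 to 45.0 and 16.5 to 19.6 TPM in replicate 1, were far apart.

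The 148-codon form lacks coding exon 3, which has 117 bases, 39 codons, at chr8:105178593-105178709, and which the other 3 complete coding forms carry. Of TPM in complete coding forms, 70.0% ± 0.3 (n = 2) was assigned to the form that lacks this exon. The leading form also starts later than the others in the annotation, at 105170945 against 105170689 for the 182-codon form. Their last coding exons differ as well. The exon that begins at 105202452 has 96 coding bases in the 148-codon form and 127 in the 182-codon form. The last coding exon has 66 coding bases in the 148-codon form and 20 in the 182-codon form. The part of reads at the 5′ end and in these later exons in the split was not tested, so it is not a measure of exon 3 skipping alone. The exon is printed because it distinguishes the leading form.
Cbfb exon: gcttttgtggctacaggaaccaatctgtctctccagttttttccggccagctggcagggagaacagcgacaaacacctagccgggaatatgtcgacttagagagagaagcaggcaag

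For Cbfa2t2, 2 of 9 transcripts took 10% or more. The 594-codon form (ENSMUST00000045270.10) stood at 4.42 and 3.50 TPM and the 473-codon form (ENSMUST00000099178.5) at 2.10 and 1.10 TPM. Both were lower in replicate 2. Internal fragments held 24.5% of its TPM in replicate 1 and 10.6% in replicate 2, or 161 reads in each, and all complete coding RNA came from 1 group of starts.

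**Figure D4:**
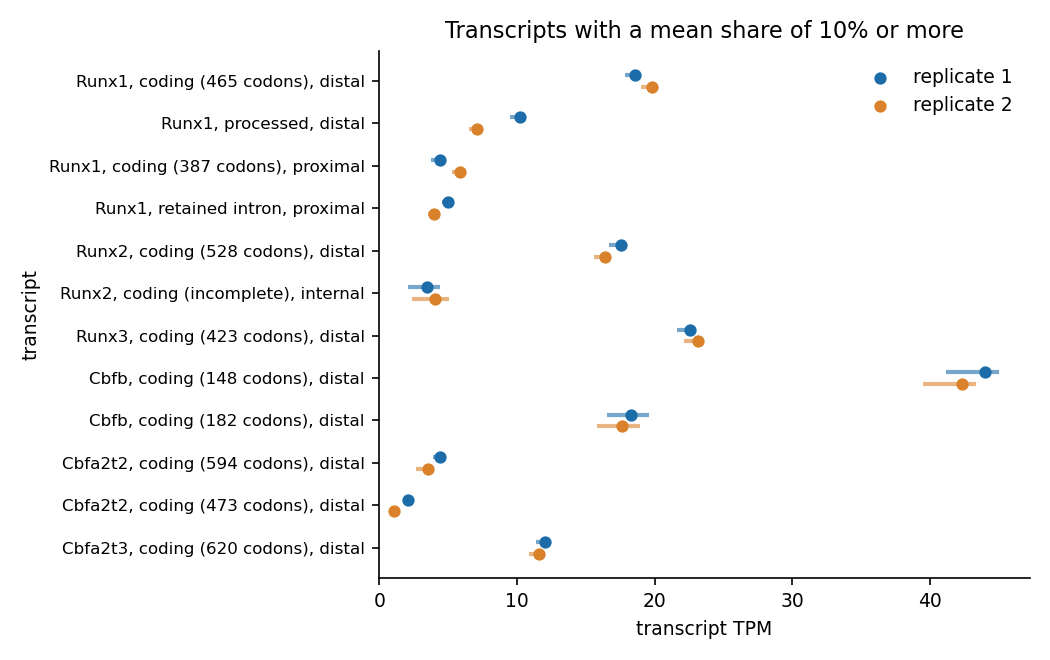
TPM of the transcripts of 6 members with a mean share of 10% or more (points: libraries; lines: the authors' credibility intervals), labelled by kind, coding length and start group. The 148-codon Cbfb form is the highest, at 44.0 and 42.3 TPM, and a distal coding form leads each RUNX gene.

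Genes that overlap a member could share its reads, since no source used here says whether counting used strand. Supt3, a protein-coding gene opposite Runx2 that spans the distal Runx2 start, stood at 15.6 and 10.9 TPM from 1184 and 857 reads. The antisense gene Runx2os1, which spans the proximal Runx2 start, had 12.3 and 40.5 reads, against 548 and 264 for the proximal Runx2 group, and Runx2os2 had 57.0 and 64.0 reads. Gm20388, a very long annotated gene opposite Cbfa2t3, had 1809 and 1649 reads and also spans many other genes. Gm10612, an antisense gene that spans the distal Cbfa2t3 start, had 46.0 and 44.3 reads. The antisense gene Gm26626 in Runx1 stood at 0.48 and 0.69 TPM.

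Listed blood transcription regulators that interact with core-binding factor were all detected. Each of 19, which include the non-DNA-binding cofactors Lmo2 and Ldb1, reached 1 TPM in both libraries, with medians of 23.2 and 25.4 TPM. Of 21474 protein-coding genes, 46.2% reached that level, with medians of 0.62 and 0.54 TPM. This list and those below were chosen with earlier results of these data known, so such counts are no separate support. Myb, a regulator of progenitor growth, stood at 319 and 272 TPM, Lmo2, a bridging protein of the TAL1 complex, at 196 and 177 TPM, and Spi1, the myeloid factor PU.1, at 75.1 and 97.7 TPM. The lowest was Ets1 at 2.20 and 2.82 TPM. Gata1, the erythroid and megakaryocytic factor, stood at 10.8 and 4.48 TPM and was the 1 list member past 2-fold, with a log2 ratio of -1.11.

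Nearest to Runx1 in level over the 2 libraries, among these 19 factors, were Tcf12 at 43.1 and 36.9 TPM and Fli1 at 33.0 and 38.8 TPM. Their Euclidean distances on log2(TPM + 1) were 0.19 and 0.39. Nearest to Cbfb were Ikzf1 at a distance of 0.10 and Nfe2 at 0.37, and nearest to Cbfa2t3 were Tcf3 at 0.24 and Erg at 0.47. With 2 libraries this likeness is one of level only.

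Cofactors of the RUNX and ETO proteins were also broadly expressed. Of 18 corepressor genes, 17 reached 1 TPM in both libraries. Ncor1, the nuclear receptor corepressor that ETO proteins bind, stood at 154 and 147 TPM, the deacetylase gene Hdac2 at 83.2 and 87.4 TPM, and Aes, a short relative of the Groucho corepressors, at 77.5 and 74.8 TPM. Tle2, a full-length Groucho gene, was the lowest at 0.65 and 0.40 TPM. Among 14 coactivator and chromatin genes found, 12 reached 1 TPM, among them the chromatin remodelling gene Arid1a at 43.8 and 44.8 TPM and the acetyltransferase gene Ep300 at 33.1 and 35.0 TPM, while the Hippo pathway coactivators Yap1 and Wwtr1 had no reads.

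Of 20 genes listed for the modification of RUNX proteins, mostly kinase and ubiquitin ligase genes, 18 reached 1 TPM in both libraries. The list, called modifying enzymes here, also holds the phosphatase gene Ptpn11, the cyclin gene Ccnd3 and the ligase activator genes Cdc20 and Fzr1. The cell cycle kinase genes Cdk4 and Cdk6 stood at 277 and 267 TPM and at 102 and 93.8 TPM, and the ligase gene Nedd4 at 69.2 and 56.8 TPM. Src was the lowest at 0.11 and 0.0 TPM. No member of these 3 lists passed 2-fold between the libraries.

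Genes known as targets of RUNX1 were described by lineage. Of 17 megakaryocyte and platelet targets, 8 reached 1 TPM in both libraries, or 47.1%, close to the 46.2% of all protein-coding genes, with medians of 1.91 and 1.21 TPM. The non-muscle myosin gene Myh9 at 78.6 and 69.0 TPM, Nfe2 at 57.4 and 47.4 TPM and the trafficking gene Rab1b at 21.1 and 24.2 TPM were the highest, and Myl9, the platelet myosin light chain, was the lowest at 0.08 and 0.0 TPM. Of 22 myeloid and lymphoid targets, 15 reached 1 TPM in both, or 68.2%, with medians of 6.74 and 8.57 TPM. The granule protein genes Mpo, Elane and Ctsg were highest at 6306 and 5478, 3661 and 2759, and 1738 and 1960 TPM, and the lymphocyte genes Cd8a and Blk had no reads. Mpo, Elane and Ctsg stand in the granulocyte marker list too, and Cd8a in that of T and NK cells, so these levels and the marker levels above are the same measurements.

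**Figure D5:**
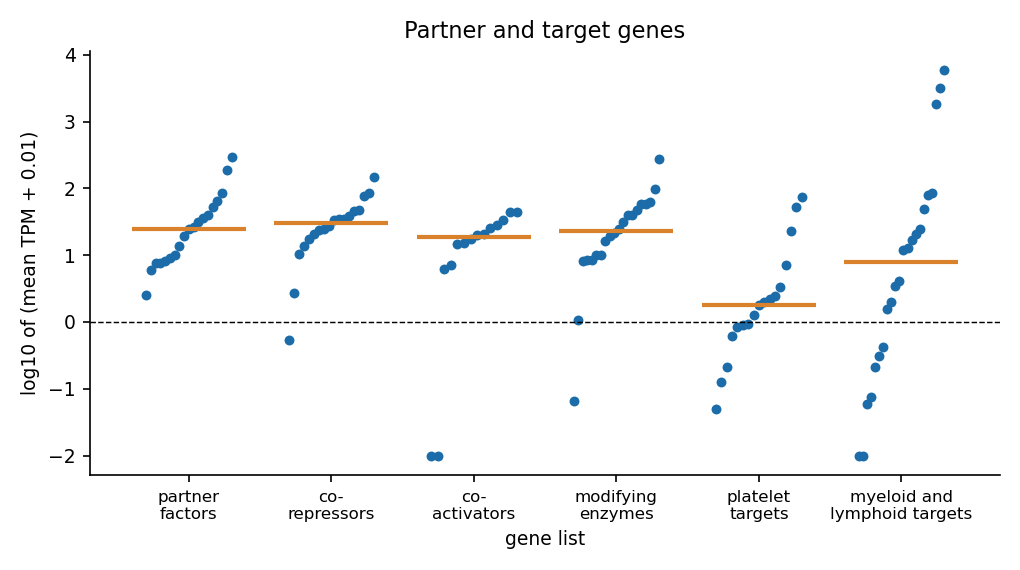
Mean TPM of each gene (points) in 6 lists of RUNX partners, cofactors, modifying enzymes and targets, as log10 of (mean TPM + 0.01); orange lines are list medians and the dashed line is 1 TPM. The platelet targets have the lowest median and the myeloid and lymphoid targets the widest range.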

How the data were processed

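RNA abundance was measured in 2 total RNA-seq libraries of 1 group, labelled by cell type, and both were used. Per the deposited file lists, reads were aligned to mm10 and quantified against GENCODE M4 in each library on its own. No source used here names the aligner, the quantifier or the use of strand. Expected counts, as deposited, estimate the reads that belong to each feature, shared reads being apportioned, and have no scaling. TPM, as deposited by the authors, divides by length and sums to a fixed total per library, so levels are relative to abundant RNA such as the mitochondrial genes and Gm42418. The deposited percent values give each transcript's part of its gene's TPM. The deposited score columns are bounds of a credibility interval of unstated level.

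From these, sums, shares and log2 ratios of (TPM + 1) were computed with pandas 2.3.3 in Python 3.11.15. GENCODE M21 (GRCm38, which mm10 is) gave symbols, starts and exons: 42462 Ensembl genes matched, as did all 55 member transcripts, of which 52 had the same spliced length. The leading Cbfa2t3 form had 4047 bases as deposited and 7645 in M21. The 182-codon Cbfb form had 2836 and 2891, and an internal Runx1 fragment 518 and 716. The quantified models of these transcripts thus differ from those described here. In the Runx genes and Cbfa2t3, starts that share a coding start with the most upstream coding cluster were called distal, and other clusters with a complete coding start proximal. Promoter windows were matched by symbol to RefSeq for 6 of the 7 members, with none at the Runx2 proximal start. Expected counts behind 1 TPM ranged from 142 to 351 reads per member. The ratio and start-grouping steps were tested on simulated data.

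No test between conditions was made. Members and gene lists were chosen with earlier results of these data known. Of each partner and target list, the 3 highest genes, the lowest and any gene of 5 TPM or more past 2-fold are named, except for items not reported here; Spp1, Gzmb, Tcf4, Bst2, Siglech and the marker genes at 0 were added after their values were seen. Prmt1 had no match and was left out. Alternatives were the posterior mean TPM, expected counts, the pseudocount, filters, the window for joining starts, coding transcripts alone and each library alone.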

Additional observations from a re-analysis of the deposited data

How the results depend on the processing

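Of 30 alternative values for 8 results, 19 lay within the spread of the libraries, or for counts within 1.5 times, 11 moved, and none reversed. The 12 values of shares and ratios in each library alone are not among these, since with 2 libraries each lies within 1 SD of the mean by construction. With expected counts not divided by length, the Runx1 share of the RUNX genes was 47.1% and Cbfb per RUNX gene 0.415. With coding transcripts alone, the proximal shares were 17.2% for Runx1, 4.56% for Runx2 and 0.043% for Runx3. Joining starts within 2000 bases adds the internal fragments to the proximal group, which gave 25.8%, 22.4% and 5.46%, and joining within 100 bases gave 0.040% for Runx3. The Runx3 share was 4.21% with posterior mean TPM and 0.245% with expected counts, an alternative chosen after the data were seen. The cause of the posterior mean difference was not tested. No member passed 2-fold under any alternative, and 74 to 91 of 107 listed genes reached the threshold in both libraries, against 86. Low read numbers limit Runx1t1, the Runx3 proximal start and the short fragments, and counting limits leave out PCR copies. No paired analysis was possible because the labels give 1 group.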

Other observations

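RUNX binding words in promoter windows were also counted for the gene lists. By gene, 25.0% of 27025 genes with a window held TGTGGT or TGCGGT on either strand. The share was 3 of 12 for megakaryocyte and platelet targets of RUNX1 and 4 of 14 for its myeloid and lymphoid targets. It was 1 of 14 for partner factors, 3 of 14 for corepressors, 2 of 12 for coactivators and 6 of 16 for modifying enzymes. Among the marker lists it was 1 of 11 for megakaryocytes, 4 of 11 for granulocytes and monocytes, 4 of 8 for erythroid cells and 5 of 8 for mast cells and basophils. It was 5 of 10 for T and NK cells, 2 of 5 for plasmacytoid dendritic cells and 3 of 7 for osteoblasts and chondrocytes. The lists are short, the counts describe letters only, and nothing was tested.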
